A study of Mus musculus with 8 samples.

Results

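The replication-dependent histone genes of the mouse are described here as every feature whose symbol begins with Hist1h, Hist2h, Hist3h or Hist4h. The symbol alone chose them, and 70 of the 55422 features in the deposited counts carry such a symbol. *Hist1h4i* was named in that choice because its difference between genotypes was already known from these data, so its values in Tet-TKO and WT host cells are given as a description without a test, and counts of called genes are over the other 69. The genes were measured by single-cell RNA-seq (10x Genomics 3′ chemistry) in chimaeric embryos, made to ask what the loss of TET enzymes does to cells that develop beside normal ones. At E8.5 there were 4 libraries of Tet-TKO cells and 2 of WT host cells, and E7.5 is represented by 1 library per genotype.

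Tet-TKO cells descend from a line of ES cells of mixed C57BL/6J and 129Sv background that lacks all TET enzymes and carries a CAG-driven H2B-tdTomato-IRES-Puromycin transgene. They were injected into wild-type C57BL/6J blastocysts, which were transferred to CD1 recipients, and pooled embryos were sorted by FACS into tdTomato+ cells (Tet-TKO) and tdTomato- cells (WT host). Each pool of embryos was sorted into both fractions, but the labels do not say which libraries share a pool. Genotype, strain, line and transgene cannot be told apart. The transgene encodes a histone H2B fused to tdTomato, and whether reads of its H2B part were counted on an H2B gene was not tested.

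Core histones (H2A, H2B, H3 and H4) form the protein spool of the nucleosome, and the linker histone H1 binds the DNA between spools. Most of their genes lie in clusters and are transcribed while DNA is replicated, which supplies new histones for the new DNA. Their mRNAs are the best-known exception to polyadenylation: they end just after a stem-loop that is bound by SLBP, although several histone genes also have longer, polyadenylated transcripts. The libraries studied here were primed on poly(A).

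The 70 genes comprise 56 with Hist1 symbols on chromosome 13, all in 1 cluster but for *Hist1h2al*, 10 with Hist2 symbols on chromosome 3, 3 with Hist3 symbols on chromosome 11 and *Hist4h4* on chromosome 6. By histone type there are 6 H1, 20 H2A, 19 H2B, 12 H3 and 13 H4 genes. The GENCODE M21 annotation of GRCm38 (the mm10 assembly) lists 67 as protein coding. *Hist1h2aj* is listed as an unprocessed pseudogene, and *Hist1h2al* and *Hist3h2bb-ps* as processed pseudogenes. Many members are near copies of each other. Of the 60-base words of *Hist1h2ap*, 92.9% also occur in other members, among them *Hist1h2ao*. The share was 89.5% for *Hist1h4m*, whose near copies include *Hist1h4n*, and 79.2% for *Hist1h2bl*. Reads can thus be counted on either copy, and levels of such genes are uncertain.

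The stem-loop was searched on the sense strand after the stop codon, as an arm of 6 bases beginning with GG, a loop of 4 bases beginning with TT, and the exact reverse complement of the arm. It was found in the annotated transcripts of 44 of the 70 genes. The arm was GGCTCT in all 33 of the H1, H2A, H2B and H3 genes that had it, whereas the H4 genes had GGCCCT in 9 and GGTCCT in 2. The following sequences from GENCODE M21 are shown for genes whose levels are described below, both some that varied widely between libraries and some that varied little, with the arms of the stem in capitals.
*Hist1h2ap*, chr13:21833029-21833058, minus strand: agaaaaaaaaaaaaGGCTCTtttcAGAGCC
*Hist1h2ae*, chr13:23570668-23570697, minus strand: gtaaaaaaaacaaaGGCTCTtttcAGAGCC
*Hist1h1e*, chr13:23621782-23621811, minus strand: cccaacaacccaaaGGCTCTtttcAGAGCC
*Hist1h4d*, chr13:23581936-23581965, plus strand: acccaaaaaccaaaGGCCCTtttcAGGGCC
*Hist1h4i*, chr13:22040966-22040995, minus strand: caatgctacttaaaGGCCCTttttAGGGCC
*Hist1h4j*, chr13:21735423-21735452, plus strand: tatatttccctaaaGGTCCTtttcAGGACC
*Hist3h2ba*, chr11:58949335-58949364, plus strand: gcccccaacccaaaGGCTCTtttcAGAGCC
*Hist4h4*, chr6:136803998-136804027, minus strand: cccccatccacaaaGGCCCTtttcAGGGCC

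Of the 44 genes, 19 had annotated transcripts that ended within 50 bases of the stem-loop and 25 had one that ran further. In 11 of these 25 the letters of a poly(A) signal, AATAAA or ATTAAA, stood within the last 40 bases on the sense strand. Counted by transcript in the same windows, the letters stood in the last 40 bases of 21 of the 78 histone transcripts (26.9%) and of 48.7% of the other protein-coding transcripts. The stem-loop stood in the last 66 bases of 19 of the 78 (24.4%) and of 3 of the other 58701. Among the 26 genes with no stem-loop found, 15 of the 23 protein-coding ones have an annotation that stops within 2 bases of the stop codon, so the absence there says nothing about the gene. The last 30 bases are shown for those of the genes above whose longer transcripts hold these letters, with the match nearest the end in capitals.
*Hist1h2ae*, chr13:23570517-23570546, minus strand: ccAATAAAtgggtcaatttttttcagattc
*Hist1h4i*, chr13:22040636-22040665, minus strand: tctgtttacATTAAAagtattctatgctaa
*Hist1h4j*, chr13:21735808-21735837, plus strand: cggatgcaataaaattctgAATAAAactgc
*Hist3h2ba*, chr11:58949504-58949533, plus strand: attAATAAAtttggttcaattttggccaca
*Hist4h4*, chr6:136801553-136801582, minus strand: agaagatgctagaggagatgaAATAAAtac

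Cells with at least 1500 UMIs were kept, which left between 1012 and 9552 cells per library and between 65082949 and 136773098 UMIs. Tet-TKO libraries 3 and 4 at E8.5 stood apart: they held 2304 and 1012 cells with a median of 40386.5 and 68704 UMIs, against medians of 12176 to 20741 UMIs in the other libraries. Any pair of libraries shared at most 28 cell barcodes. Levels are given in CPM, for which UMIs were divided by the total over the kept cells of that library and scaled to a fixed depth. In this 3′ assay a UMI stands for a captured molecule whatever the length of the transcript, so the order of genes in CPM also carries how well each 3′ end was captured.

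A few genes made up most of the histone signal. The 3 genes with the highest mean level at E8.5, *Hist1h2ap*, *Hist1h2ae* and *Hist1h1b*, took between 54.5% and 69.0% of the UMIs of all 70 genes, and the leading 10 took between 80.0% and 85.5%. Values are listed for Tet-TKO libraries 1 to 4 first and then for WT host libraries 1 and 2. *Hist1h2ap*, an H2A gene, measured 347, 363, 304 and 478 CPM against 185 and 229 CPM. *Hist1h2ae*, another H2A gene, measured 156, 148, 533 and 667 CPM against 117 and 114 CPM. *Hist1h1b*, a linker histone, measured 74.2, 84.9, 552 and 511 CPM against 61.6 and 86.2 CPM. At E8.5 all 3 were lowest in a WT host library, and *Hist1h2ae* and *Hist1h1b* were far higher in Tet-TKO libraries 3 and 4 than in any other.

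The next genes in level were the linker histones *Hist1h1e*, *Hist1h1a* and *Hist1h1d*, the H3 gene *Hist1h3c* and the H4 genes *Hist1h4d* and *Hist1h4i*. *Hist1h1e* measured 43.1, 51.4, 185 and 188 CPM against 43.7 and 58.7 CPM. *Hist1h3c* measured 19.5, 18.9, 86.4 and 107 CPM against 13.3 and 15.6 CPM, and *Hist1h4d* 9.42, 9.93, 88.2 and 114 CPM against 10.1 and 11.4 CPM. The H2B gene with the highest mean over the 6 libraries, *Hist1h2bj*, reached 8.83, 9.40, 23.0 and 30.5 CPM against 9.75 and 10.6 CPM, but *Hist1h2bc* was above it in both WT host libraries, at 24.3 and 15.2 CPM. By the same mean the leading genes of the other clusters were *Hist2h2bb* with 4.10, 4.78, 22.6 and 25.4 CPM against 2.07 and 2.47 CPM, *Hist3h2a* with 4.96, 4.26, 8.91 and 9.00 CPM against 5.97 and 5.18 CPM, and *Hist4h4* with 3.50, 3.60, 5.90 and 6.44 CPM against 3.54 and 3.37 CPM. The order differed within the WT host libraries, with *Hist2h2ac* (6.50 and 8.94 CPM) above *Hist2h2bb* and *Hist3h2ba* (8.44 and 7.89 CPM) above *Hist3h2a*. Among the E8.5 libraries, *Hist1h1e*, *Hist1h3c*, *Hist1h4d*, *Hist1h2bj*, *Hist2h2bb*, *Hist3h2a* and *Hist4h4* were highest in Tet-TKO libraries 3 and 4.

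**Figure D1:**
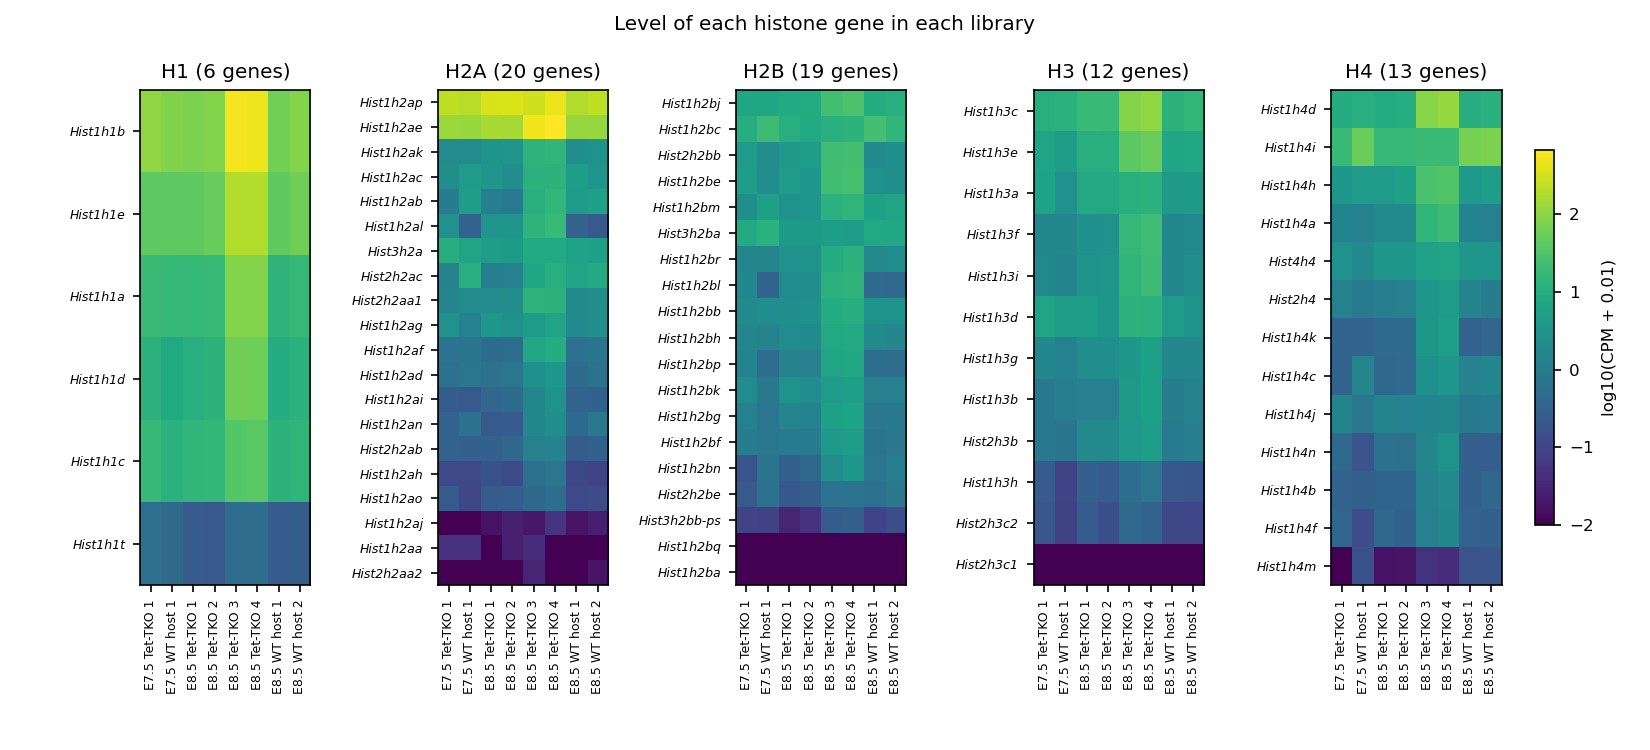
Heat maps of the level of each of the 70 genes (rows, grouped by histone type and ordered by mean level at E8.5) in each of the 8 libraries (columns), coloured by log10(CPM + 0.01). The columns of E8.5 Tet-TKO 3 and 4 are brighter for most genes but not for *Hist1h2ap* or *Hist1h4i*, and *Hist1h4i* is brightest in the WT host columns.

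Germline members were near or at 0. *Hist1h1t*, the testis linker histone, measured between 0.211 and 0.560 CPM in the 8 libraries. *Hist1h2aa*, a testis H2A, measured at most 0.0386 CPM. *Hist1h2ba*, a testis H2B, *Hist1h2bq* and *Hist2h3c1* had no UMI in any library, which allows up to 0.0461 CPM in the shallowest library and 0.0219 CPM in the deepest (3 counts, counting error only). Since 96.7% of the 60-base words of *Hist1h2bq* occur in other members, among them *Hist1h2br*, a count of 0 for *Hist1h2bq* is uncertain.

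The summed level of the 70 genes was 838, 865, 2383 and 2792 CPM in Tet-TKO cells against 668 and 764 CPM in WT host cells at E8.5. Libraries 1 and 2 were 1.19-fold above the WT host mean, whereas libraries 3 and 4 were 3.61-fold above it and 3.04-fold above the other Tet-TKO libraries. The log2 ratio of the genotype means, 1.26, fell to 0.25 without libraries 3 and 4. No test was made of this sum, since its members were chosen. At E7.5 the sum was 714 CPM in Tet-TKO and 691 CPM in WT host cells. The E7.5 WT host library held 1882 extraembryonic (ExE) ectoderm-like cells, named from marker genes, with a sum of 576 CPM, and Tet-TKO held 14. By class the order varied. Epiblast-like cells had 728 CPM in Tet-TKO against 811 CPM in WT host, and nascent mesoderm-like cells 718 against 860 CPM. Allantois-like cells had 746 against 698 CPM. The ratio of Tet-TKO libraries 1 and 2 to the WT host depended on single genes. Without *Hist1h4i*, which was lower in Tet-TKO cells, it was 1.29. Without *Hist1h2ap* instead the sum was 490 and 501 CPM there against 483 and 536 CPM in WT host cells, a ratio of 0.974.

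By histone type, the level in Tet-TKO libraries 3 and 4 was 5.25-fold that of libraries 1 and 2 for H1, 2.07-fold for H2A, 3.43-fold for H2B, 4.02-fold for H3 and 4.51-fold for H4. The H2A value rested on *Hist1h2ap*, without which it was 4.03-fold. Libraries 1 and 2 differed much less from WT host libraries, with ratios of 1.04 for H1, 1.50 for H2A, 0.8287 for H2B and 1.44 for H3. H4 was the exception at 0.439, since *Hist1h4i* made up 73.6% and 74.0% of the H4 UMIs in WT host libraries and 41.5% and 39.4% in Tet-TKO libraries 1 and 2. Hist1 genes took between 94.5% and 97.1% of the histone UMIs in every library. The Hist2 sum was 11.2, 12.5, 52.7 and 60.7 CPM in Tet-TKO against 13.8 and 17.3 CPM in WT host cells, and the Hist3 sum 9.31, 8.53, 14.2 and 13.9 CPM against 14.5 and 13.2 CPM. The Hist3 genes thus differed least between the Tet-TKO library pairs among the 3 clusters with several genes.

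**Figure D2:**
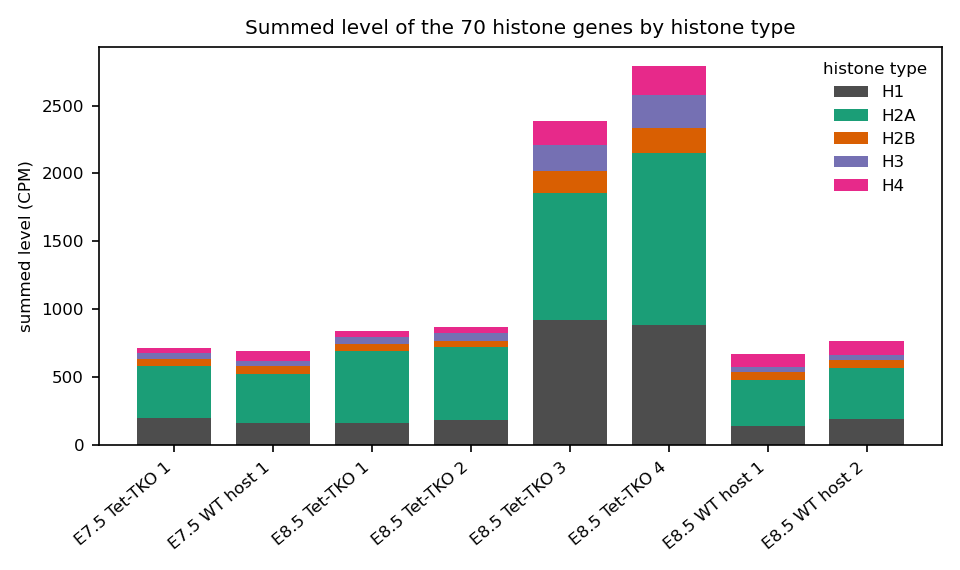
Stacked bars of the summed level of the histone genes of each type (CPM, from 0) in each of the 8 libraries. Tet-TKO libraries 3 and 4 at E8.5 reach 2383 and 2792 CPM, and the other 6 libraries lie between 668 and 865 CPM.

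A histone UMI was also found in more cells of libraries 3 and 4. With every cell thinned to 5000 UMIs, which matches UMIs per cell but leaves the share of histone UMIs as it was, and which left out 76 and 91 cells of these libraries, a cell held a mean of 11.7 and 13.3 histone UMIs, against 3.37 to 4.35 in the other 6 libraries. The share of cells with a histone UMI was 95.6% and 95.7% after thinning (99.6% and 99.2% before), against 87.0% to 89.3% (95.0% to 97.8% before). Other values moved with this excess. The sum of 8 RNAs that are known to lack a poly(A) tail (*Rpph1*, *Rn7sk*, *Terc*, *Scarna2*, *Rny1*, *Rny3*, *Rnu11* and *Rnu12*, listed after the histone levels were seen) was 11.2 and 15.5 CPM in libraries 3 and 4, against 1.84 and 2.02 CPM in libraries 1 and 2. It was 1.84 and 2.19 CPM in the WT host, and their part in the result was not tested. Median UMIs per cell were also highest in libraries 3 and 4, and their part was not tested. The sum of 42 S-phase genes moved little, at 4170, 4271, 4701 and 4859 CPM in Tet-TKO against 4284 and 4433 CPM in WT host cells.

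The ratio of libraries 3 and 4 to libraries 1 and 2 ranged from 1.10 to 16.9, with a median of 4.21, among the 48 genes with at least 0.5 CPM in libraries 1 and 2. *Hist1h2af*, an H2A gene, had the highest ratio, with 0.504, 0.545, 7.90 and 9.85 CPM. Next came *Hist1h2ab* at 11.9 and *Hist1h4d* at 10.5. The lowest ratios belonged to *Hist1h2ap* at 1.10, *Hist1h4j* at 1.11, *Hist1h4i* at 1.12, *Hist3h2ba* at 1.13, *Hist1h2bc* at 1.29 and *Hist1h3a* at 1.39. Genes of this and the next paragraph were picked for their ratios after these had been seen.

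The low ratios were not spread evenly over the annotated ends. Above the level limit, 9 genes run past the stem-loop and have poly(A) signal letters, with a median ratio of 1.94 and a range of 1.11 to 6.16. Of these, 5 had a ratio under 2 (*Hist1h4j*, *Hist1h4i*, *Hist3h2ba*, *Hist4h4* and *Hist3h2a*). The others were *Hist1h1c* at 2.44, *Hist2h4* at 3.19, *Hist1h2ae* at 3.94 and *Hist1h2be* at 6.16. Of the 12 that run past the stem-loop without these letters none did, with a median of 4.37 and a range of 2.92 to 10.5. Of the 14 that end at the stem-loop 4 did (median 4.03), and of the 13 with no stem-loop found 2 did (median 5.06). *Hist1h2ap* has no annotated transcript past its stem-loop, and a run of 12 A bases stands directly before it, as the sequence above shows. *Hist1h2ac*, with a longest run of 15 A bases, had a ratio of 4.46. This run lies past the stem-loop and begins 856 bases after the stop codon. *Hist1h2ao*, with the same 12 A bases directly before its stem-loop as *Hist1h2ap*, was under the level limit. These are descriptions of annotated letters over few genes, and no measurement of the ends of these RNAs was used. The part of poly(A) signal letters or A runs in the ratios was not tested.

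**Figure D3:**
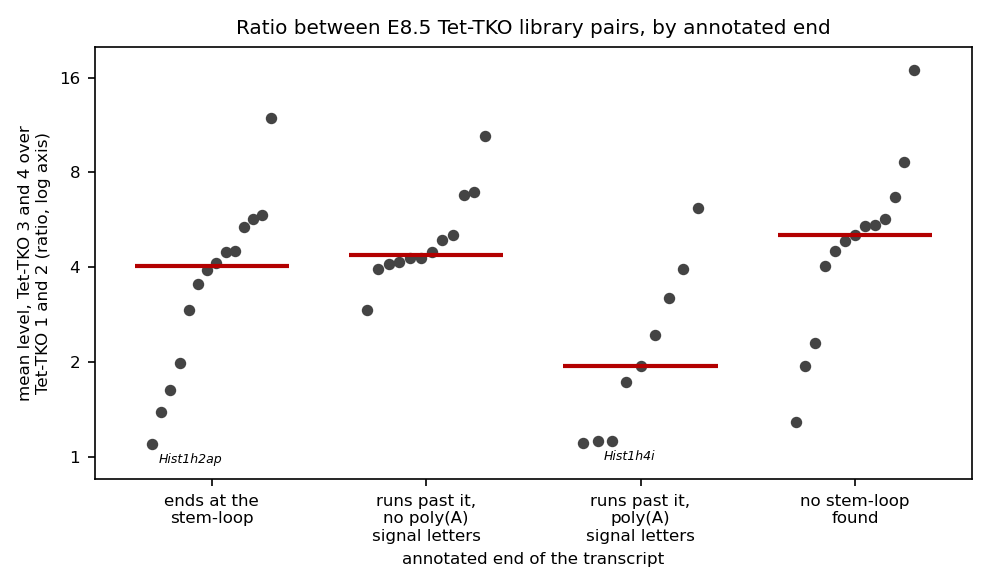
Ratio of the mean level in E8.5 Tet-TKO libraries 3 and 4 to that in libraries 1 and 2 (log axis) for the 48 genes with at least 0.5 CPM in the latter, by annotated end of the transcript. Points are genes and red lines group medians. The group that runs past the stem-loop with poly(A) signal letters has a median of 1.94 and a range of 1.11 to 6.16. The other medians lie between 4.03 and 5.06, and the ranges overlap.

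*Hist1h4i* (chr13:22040636-22041362, minus strand) is one of the H4 genes. At E8.5 it measured 17.4, 17.0, 19.1 and 19.4 CPM in Tet-TKO against 67.3 and 75.9 CPM in WT host cells. At E7.5 it was 18.4 CPM in Tet-TKO cells and 53.7 CPM in WT host cells. The genotypes did not overlap at E8.5, whereas at E7.5 no spread between libraries of a genotype could be measured, so overlap cannot be judged. Unlike most of its relatives, *Hist1h4i* was nearly level across the 4 Tet-TKO libraries of E8.5. It is the gene the choice of members turned on, and these values support nothing further.

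Between genotypes at E8.5, the edgeR quasi-likelihood test called 1 of the 63 other histone genes that passed the filter on low counts, at an adjusted p of 0.01 and a log2 fold change of 1. Over all genes tested the rule called 2.65%. The called gene was *Hist1h3a* (chr13:23761853-23762386, minus strand), which encodes a replication-dependent H3. It measured 8.06, 8.28, 10.8 and 11.9 CPM in Tet-TKO against 3.89 and 4.29 CPM in WT host cells, without overlap (log2 fold change 1.16, SE 0.158, edgeR adjusted p = 0.008). The call was lost when any one of the 6 libraries was left out, with log2 fold changes of 1.05 to 1.24 and edgeR adjusted p between 0.0147 and 0.0745. WT host libraries 1 and 2 held 1411 and 2374 erythroid-like and 547 and 226 visceral endoderm-like cells, against at most 202 and 8 in a Tet-TKO library. Without erythroid-like and extraembryonic-like cells *Hist1h3a* measured 8.08, 8.39, 11.004 and 11.9 CPM against 4.99 and 5.13 CPM and was not called (log2 fold change 0.97, edgeR adjusted p = 0.0211), and *Hist3h2ba* was the 1 gene called, where 0.951% of all genes were. The labels do not say whether libraries come from separate pools of embryos, so p-values measure the spread between these libraries, which may be technical.

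At an adjusted p of 0.05 with no minimum fold, 5 histone genes were higher and 3 lower in Tet-TKO cells by the same edgeR test, where 10.5% of all genes passed. Higher were *Hist1h3a*, *Hist1h2al*, *Hist1h2ao*, *Hist1h2bk* and *Hist1h2bl*, and lower were *Hist3h2ba*, *Hist1h2bc* and *Hist1h4m*. The last of these had only a few counts in each Tet-TKO library. *Hist3h2ba*, an H2B gene whose annotated end runs past the stem-loop, measured 4.33, 4.23, 5.01 and 4.64 CPM against 8.44 and 7.89 CPM (log2 fold change -0.93, edgeR adjusted p = 0.00508), and 4.37, 4.28, 5.14 and 4.68 CPM against 11.7 and 11.003 CPM without erythroid-like and extraembryonic-like cells (-1.27, edgeR adjusted p = 0.00294). *Hist1h2bc*, another H2B gene, measured 10.4, 8.51, 11.5 and 13.0 CPM against 24.3 and 15.2 CPM (log2 fold change -0.96, edgeR adjusted p = 0.0280). The groups of both genes do not overlap. Visceral endoderm-like cells, with 115 and 134 CPM of *Hist1h2bc* in WT host libraries, supplied 10.3 and 3.37 CPM of its level there and at most 0.157 CPM in a Tet-TKO library. Without erythroid-like and extraembryonic-like cells *Hist1h2bc* measured 10.4, 8.55, 11.3 and 13.0 CPM against 16.7 and 11.9 CPM, with overlap (log2 fold change -0.39, edgeR adjusted p = 0.296). Of the 62 genes with at least 60 UMIs at E8.5, 33 had all Tet-TKO libraries above and 2 had all below the WT host libraries, which is 35 of 62 where 41.9% of all such genes were apart.

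Since libraries 3 and 4 raised most histone genes, the comparison was repeated without them. It then called 3 histone genes higher and 3 lower in Tet-TKO cells, where 0.860% and 1.43% of all genes were called in these directions. Higher were *Hist1h2al*, *Hist1h2bl* and *Hist1h3a*, and lower were *Hist1h2ab*, *Hist2h2ac* and *Hist1h4m*, the last with only a few counts in each Tet-TKO library. The median log2 fold change over the genes tested was 0.22 in this fit, against 1.41 with all 6 libraries. The levels of libraries 1 and 2 and the WT host libraries were apart in 49 of 62 genes, 33 above and 16 below, where 66.8% of all such genes were apart. Without libraries 1 and 2 instead, 47 histone genes were called higher and 1 lower, where 5.22% and 4.55% of all genes were called. A replicate block on the shared library numbers, fitted without libraries 3 and 4, called 6 higher and 8 lower, where 8.71% of all genes were called.

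*Hist1h2al* (chr13:51202727-51203065), which lies apart from the cluster and is annotated as a processed pseudogene, measured 3.25, 3.24, 13.5 and 17.8 CPM in Tet-TKO against 0.312 and 0.213 CPM in WT host cells. The same order held at E7.5, with 2.76 CPM against 0.319 CPM. Without libraries 3 and 4 its log2 fold change was 3.63 (edgeR adjusted p = 0.00426). *Hist1h2bl*, an H2B gene, measured 2.17, 2.42, 12.2 and 14.0 CPM against 0.480 and 0.434 CPM. It was also above the WT host at E7.5, at 1.78 CPM against 0.328 CPM. Both were above the WT host range in every Tet-TKO library.

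*Hist2h2ac*, an H2A gene of the Hist2 cluster, measured 1.21 and 1.33 CPM in Tet-TKO libraries 1 and 2 against 6.50 and 8.94 CPM in WT host libraries, a log2 fold change of -2.59 without libraries 3 and 4 (edgeR adjusted p = 0.00567). In libraries 3 and 4 it measured 6.85 and 10.7 CPM, inside or above the WT host range. *Hist1h2ab* measured 1.22 and 0.943 CPM against 4.61 and 5.76 CPM, and 10.5 and 15.4 CPM in libraries 3 and 4. *Hist1h4m* measured between 0.00731 and 0.0419 CPM in all 4 Tet-TKO libraries against 0.168 and 0.189 CPM. In these Tet-TKO libraries 3 counts are between 0.0219 and 0.0461 CPM, so its levels there rest on a few counts. It passed the filter on low counts through the WT host libraries alone, and it held under 60 UMIs at E8.5. Its near copy *Hist1h4n* measured 0.651, 0.586, 1.54 and 2.83 CPM against 0.290 and 0.268 CPM. The copies thus had opposite orders, and reads that fit either were not resolved. Genes of this and the preceding paragraph other than *Hist1h2al* were chosen after their values were seen.

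At E7.5, with 1 library of each genotype, no test was made. The 95% exact Poisson intervals, which cover counting error only, were apart for 35 of the 64 other histone genes with a UMI, where 34.0% of all genes with a UMI were apart. Tet-TKO was above WT host in 23 and below in 12. All 12 that were below, among them *Hist2h2ac* (1.45 against 10.5 CPM), *Hist1h2ab* (1.10 against 4.78 CPM), *Hist1h4c* (0.332 against 1.54 CPM), *Hist1h2bc* (10.2 against 20.7 CPM) and *Hist3h2ba* (8.92 against 11.9 CPM), were also below in both of Tet-TKO libraries 1 and 2 at E8.5. Of the 23 that were above, 17 were also above there, 5 overlapped and 1, *Hist3h2a*, was below. Over all other genes apart at E7.5, 60.4% of those below and 73.0% of those above kept that order in libraries 1 and 2, so the share of histone genes above was near that of all genes. The libraries of the 2 stages share no cells, and the ES cell line is the same at both. At E7.5 the WT host library held 1882 ExE ectoderm-like, 467 erythroid-like and 346 visceral endoderm-like cells, against 14, 29 and 10 in Tet-TKO. *Hist1h2bc* measured 100 CPM in the visceral endoderm-like WT host cells. In the epiblast-like class it measured 12.9 CPM in Tet-TKO against 22.6 CPM, and in the cardiomyocyte-like class 11.6 against 10.9 CPM. The part of this composition in the E7.5 order was not tested.

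**Figure D4:**
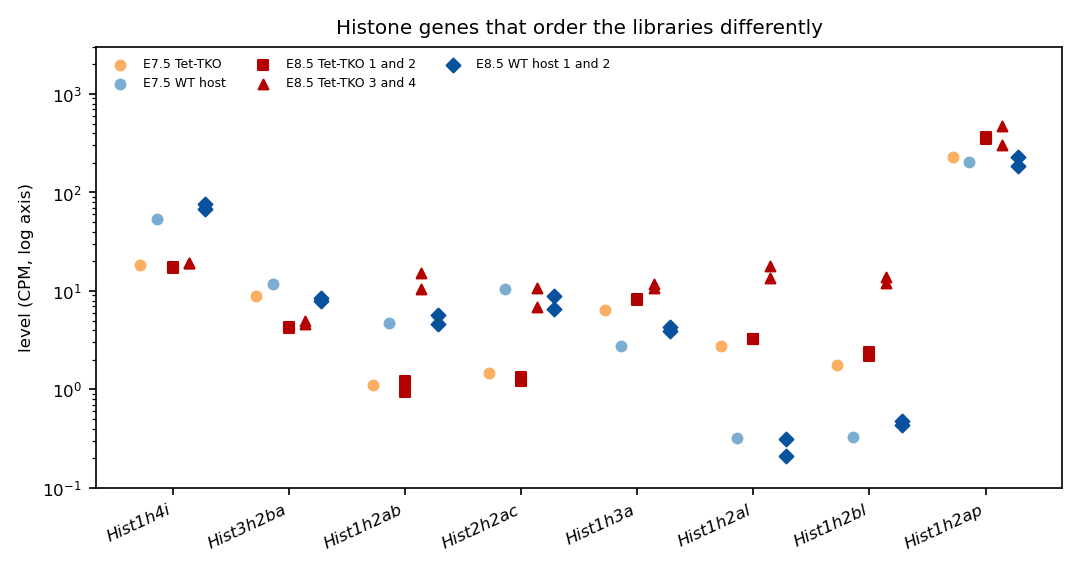
Level (CPM, log axis) of 8 histone genes in each library, with libraries marked by stage, genotype and pair. *Hist1h4i* and *Hist3h2ba* lie lower in all Tet-TKO libraries than in WT host libraries of the same stage, *Hist1h2ab* and *Hist2h2ac* lie lower at E7.5 and in Tet-TKO 1 and 2 but not in Tet-TKO 3 and 4, and *Hist1h3a*, *Hist1h2al*, *Hist1h2bl* and *Hist1h2ap* lie higher.

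Within cell classes of E8.5 embryos, named from marker genes, the genotypes were compared in 25 classes on UMIs summed per class and library. The edgeR test made 2 calls among the other histone genes, where 0.565% of all gene and class pairs were called. Between 1 (notochord-like) and 57 (brain and spinal cord-like) histone genes were tested in a class, so the share called was below that of all pairs. *Hist1h2al* was higher in Tet-TKO cells of the erythroid-like class (log2 fold change 5.20, SE 0.865, edgeR adjusted p = 0.00918), and *Hist1h2ap* in the notochord-like class (log2 fold change 2.23, SE 0.373, edgeR adjusted p = 0.000647). The notochord-like sums rested on 25 and 10 cells of Tet-TKO libraries 1 and 2 and on 46 and 17 cells of the WT host libraries, and the call of *Hist1h2ap* was lost with a replicate block (edgeR adjusted p = 0.0204). Leaving out WT host library 1 removed both calls, with a log2 fold change of 1.44 for *Hist1h2ap* and 5.74 for *Hist1h2al*. The call of *Hist1h2al* was also lost without WT host library 2, without Tet-TKO library 1 (edgeR adjusted p = 0.0118) and with Tet-TKO libraries summed in pairs (0.0325). Without Tet-TKO library 3 or 4 the gene did not pass the filter on low counts in the erythroid-like class. With all 6 libraries *Hist1h2al* thus entered the test through these libraries, where its whole-library levels were highest, and its call supports nothing further. Its log2 fold change was 3.65 without Tet-TKO libraries 3 and 4 and 3.71 with the replicate block, where it was called. Without Tet-TKO libraries 3 and 4 there were 36 calls, 14 higher and 22 lower, where 0.642% and 0.944% of all pairs were called. *Hist2h2ac* was then lower in 9 of 14 classes and *Hist1h2ab* in 7 of 16, and *Hist1h2al* was higher in 8 of 12.

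*Hist1h4i* had a negative log2 fold change in all 24 classes in which it was fitted. The genotypes overlapped in 2 of the 20 classes with at least 10 cells in every library. The gene was chosen for this difference in the same cells, so its class values are a description and support nothing further. In the brain and spinal cord-like class it measured 15.7, 14.8, 19.0 and 18.8 CPM against 76.2 and 74.2 CPM, and in the gut-like class 16.9, 16.7, 16.6 and 21.5 CPM against 43.6 and 45.0 CPM. In the erythroid-like class, which had the highest level relative to its libraries (median 1.89-fold), it measured 31.8, 33.3, 37.3 and 45.4 CPM against 98.5 and 104 CPM. The E7.5 libraries had 17.3 CPM against 62.5 CPM in the epiblast-like class and 15.8 CPM against 72.0 CPM in the nascent mesoderm-like class. The overlapping classes were an unnamed one (cluster 33) and the myeloid-like class. Cluster 33 had 13.7, 23.3, 47.0 and 59.5 CPM against 23.3 and 56.8 CPM. The myeloid-like class had 56.7, 24.8, 16.7 and 36.6 CPM against 51.1 and 65.6 CPM. Cells of these classes held few UMIs, with a median of 0.164 and 0.225 of the median of their library, so these levels rest on few counts. Over the means of 20 E8.5 classes, the genes whose pattern was most like that of *Hist1h4i* among 7660 compared were *Snhg9* (Pearson r = 0.879), *Eral1* (0.854), *Psme3* (0.844), *Gfer* (0.839) and *Ddx20* (0.838), where the classes share libraries and depth and no p is given.

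The summed level of the 70 genes differed less between classes than between the library pairs. Among the 20 classes with at least 10 cells in every library, the median over the 6 libraries of the level relative to the whole library was highest in the brain and spinal cord-like class (1.17), the pharyngeal mesoderm-like class (1.15) and the paraxial mesoderm-like class (1.13), and the last of these was above its library in 6 of 6. It was lowest in the blood progenitor-like class (0.647), the cardiomyocyte-like class (0.754) and the myeloid-like class (0.818). In the cardiomyocyte-like class, which was below its library in 6 of 6, the sum was 579, 720, 1822 and 1841 CPM in Tet-TKO against 567 and 569 CPM in WT host cells. In the blood progenitor-like class it was 537, 453, 2674 and 2746 CPM against 436 and 465 CPM, so Tet-TKO libraries 3 and 4 departed there from the order of the others, with a ratio of up to 1.12. Across the 20 classes the sum correlated with the S-phase sum within each library, with Pearson r between 0.324 and 0.558, given as a description since the classes share a library and its depth.

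Within each E8.5 library, S-high cells were those in the upper tertile of UMIs from 42 S-phase genes and not of 52 G2/M genes, and low cells were in the upper tertile of neither, both scored at 5000 UMIs per cell. The summed level of the histone genes was higher in S-high than in low cells of all 6 libraries, at 1098 against 845 CPM in Tet-TKO library 1, 3102 against 2292 CPM in Tet-TKO library 3 and 860 against 599 CPM in WT host library 1. The ratio was 1.30, 1.27, 1.35 and 1.36 in Tet-TKO against 1.44 and 1.37 in WT host libraries. At E7.5 it was 1.17 in Tet-TKO and 1.23 in WT host cells. The G2/M-high cells lay below the low cells, with ratios of 0.742, 0.731, 0.827 and 0.747 in Tet-TKO against 0.990 and 0.923 in WT host libraries. With tertiles taken within each cell class, G2/M-high against low cells had 577 against 634 CPM and 661 against 728 CPM in WT host libraries. Tet-TKO libraries 1 and 2 then had 626 against 847 CPM and 647 against 893 CPM.

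By gene, no histone gene was called in S-high against low cells at an adjusted p of 0.01 and a log2 fold change of 1, where 2.04% of all genes were called. At an adjusted p of 0.05 with no minimum fold, 40 of 62 genes tested were higher and none lower in the edgeR fit with library as a block, where 13.0% of all genes were higher and 14.3% lower, and at an unadjusted p under 0.05 there were 49 higher and 1 lower, where 39.9% of all genes passed in either direction. The calls covered 4 of 6 H1, 8 of 17 H2A, 10 of 17 H2B, 8 of 11 H3 and 10 of 11 H4 genes. *Hist1h1a* (log2 fold change 0.63), *Hist1h2ae* (0.56), *Hist1h1b* (0.46), *Hist1h2ap* (0.41) and *Hist1h1e* (0.38) were among them, with SE of the *Hist1h2ae* value at 0.032. The median log2 fold change was 0.41 over the 62 genes and -0.000648 over all genes. When tertiles were taken within each cell class 28 genes were higher, where 6.55% of all genes were, and without Tet-TKO libraries 3 and 4 there were 13, where 6.72% were.

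Between G2/M-high and low cells *Hist1h2bc* was the only histone gene called (log2 fold change -1.04, SE 0.150, edgeR adjusted p = 0.00314), where 0.494% of all genes were called lower. Its call was lost on leaving out either WT host library, Tet-TKO library 1, or either pair of Tet-TKO libraries. With tertiles within each cell class its log2 fold change was -0.74, under the fold limit, and its level differed between classes, with 115 CPM in visceral endoderm-like and 11.6 CPM in brain and spinal cord-like cells of WT host library 1. At an adjusted p of 0.05, 8 of 61 histone genes were lower and 1, *Hist2h2ab*, higher, where 9.92% and 8.27% of all genes passed. The lower ones were *Hist1h2bc*, the linker histones *Hist1h1b* (log2 fold change -0.64), *Hist1h1c* (-0.48), *Hist1h1a* (-0.43) and *Hist1h1e* (-0.16), the H2A genes *Hist1h2ae* (-0.44) and *Hist1h2ap* (-0.40), and *Hist2h2bb* (-0.22). *Hist1h1c* and *Hist1h2bc* were not called in S-high cells, with log2 fold changes of 0.11 and -0.51. *Hist1h4i* itself had a log2 fold change of 0.20 in S-high and -0.52 in G2/M-high cells. No H3 and no other H4 gene passed in G2/M-high cells. With tertiles within each cell class 15 of 62 histone genes were lower and 1 higher at an adjusted p of 0.05. Of all genes 24.6% then passed in either direction.

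**Figure D5:**
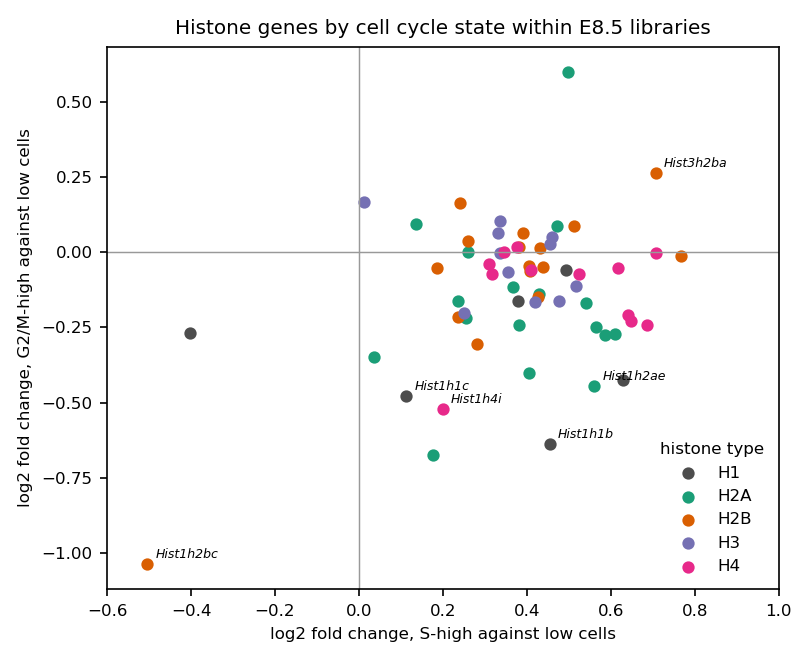
Log2 fold change of 62 histone genes (points, coloured by histone type) in S-high against low cells (x axis) and in G2/M-high against low cells (y axis) of the 6 E8.5 libraries. Most points lie right of 0, and *Hist1h2bc* lies lowest at -1.04.

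The list of histone mRNA processing and transcription factors, 18 of whose 22 symbols are among the features, gives the setting of these values. Genes of the S-phase or G2/M lists cannot count here, which leaves 15 processing factors, 10 replication-independent histone variants and 19 histone chaperones. In S-high cells 5, 8 and 12 of them were higher at an adjusted p of 0.05 (edgeR), and 0, 0 and 1 lower, beside the 13.0% and 14.3% of all genes given above. Among them were *Ccne1*, a cyclin that acts on NPAT (log2 fold change 0.59), *Chaf1a*, a subunit of the replication-coupled chaperone CAF-1 (0.50), and *Asf1b* (0.31). The variants that rose included *H3f3b* (0.0994) and *H2afz* (0.12). The median log2 fold change was 0.10 over the processing factors, 0.12 over the variants and 0.15 over the chaperones tested. *Slbp*, which binds the stem-loop, is in the S-phase list and its 0.51 is by choice. Between genotypes, *Cpsf3*, the endonuclease that cuts histone pre-mRNAs, was the only processing factor called, and was lower in Tet-TKO cells (log2 fold change -1.06, SE 0.112, edgeR adjusted p = 0.00342). Without Tet-TKO libraries 3 and 4 its log2 fold change was -0.95 (edgeR adjusted p = 0.00422), short of the fold limit.

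E8.5 was compared with E7.5 with genotype as a term. No histone gene was called among 63 tested, where 5.86% of all genes were, and at an unadjusted p under 0.05 there were 4 higher and 2 lower, where 33.4% of all genes passed. At an adjusted p of 0.05 with no minimum fold, 18.9% of all genes passed and 2 histone genes did: *Hist3h2ba* was lower at E8.5 (log2 fold change -0.86, edgeR adjusted p = 0.00602) and *Hist1h3a* higher (0.52, adjusted p = 0.0383). Over whole libraries *Hist3h2ba* fell within both genotypes. Tet-TKO went from 8.92 to between 4.23 and 5.01 CPM, and WT host from 11.9 to 8.44 and 7.89 CPM. With erythroid-like and extraembryonic-like cells left out at E8.5, WT host levels of this gene were 11.7 and 11.003 CPM. Tet-TKO levels were then between 4.28 and 5.14 CPM. The E7.5 values still include such cells, and the part of composition in the fall was not tested. *Hist1h3a* rose from 6.35 to between 8.06 and 11.9 CPM in Tet-TKO and from 2.76 to 3.89 and 4.29 CPM in WT host cells. Without Tet-TKO libraries 3 and 4 the test found 7 higher and 2 lower at that threshold, where 31.5% of all genes passed.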

How the data were processed

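Sorted cells of chimaeric embryos were profiled in 8 droplet libraries. Alignment to mm10 was done by the authors with Cell Ranger and the GRCm38.92 annotation plus tdTomato. The values deposited by the authors are unnormalised UMI counts for each gene in each barcode. The header of the counts gives Cell Ranger 3.1.0, which is not the version of the methods. A read that fits near-identical histone genes can be left out or counted on one of them, so levels of such genes are uncertain. The 70 genes and all gene lists were chosen with earlier results of these data known.

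Cells were kept from 1500 UMIs upwards, unless over 30% of their UMIs were mitochondrial or over 35% ribosomal. Clusters (scanpy 1.11.5, Leiden resolution 2) were named from marker genes, and doublets were not removed. Counts were summed per library, or per library and class from 10 cells upwards, and tested over all genes with edgeR 4.0.16 in R 4.3.3 (filterByExpr, TMM, quasi-likelihood test, Benjamini-Hochberg adjustment). A call needed an adjusted p under 0.01 with a log2 fold change of 1 or more in size. For the cell cycle states the library was a block. The study states the same test and thresholds but did not test sums over cells, so the units tested here differ from its own. The scripts were tested on simulated data. Transcript ends came from GENCODE M21. No column of another series was present, and data of the other experiments were not analysed here.

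Alternatives were DESeq2 1.42.0 and its size factors, no filter on low counts, a replicate block, each library left out, equal numbers of cells per class, other cell limits and other tertiles. Leaving out Tet-TKO libraries 3 and 4 or 1 and 2, a threshold without a fold for the cell cycle states, and a sum without *Hist1h2ap* were added after the data were seen. The genes named by rule are *Hist1h4i*, the called genes, the 10 of highest level, the leading gene of each type and cluster, those called in most classes and the germline members. Any other gene named was chosen after its values were seen.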

Additional observations from a re-analysis of the deposited data

How the results depend on the processing

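Counts here are of histone genes other than *Hist1h4i*. In brackets is the share of all genes, or of all gene and class pairs, called under the same setting. Within classes the number of histone genes tested differed by class and setting, from 1 to 57 per class in the analysis as reported. Between genotypes at E8.5, 1 was called in the analysis as reported (2.65%), 10 by the DESeq2 Wald test (8.08%), 3 without a filter on low counts (2.63%), 8 at an adjusted p of 0.05 with no minimum fold (10.5%), and 0 with Tet-TKO libraries 1 and 2 summed and 3 and 4 summed (0.00%) or with 20 cells of each class (0.407%). Leaving out any single library gave 0 calls (0.499% to 1.10%), leaving out libraries 3 and 4 gave 6 (2.29%), and leaving out libraries 1 and 2 gave 48 (9.77%). A replicate block on the shared library numbers, fitted without libraries 3 and 4 since they have no partner, gave 14 calls (8.71%), 6 higher and 8 lower. The numbers are not a pairing given by the labels. For cell type proportions, the paper compared each Tet-TKO sample with a matching WT host. With 2 pairs, the deviations of Tet-TKO 1 and WT host 1 from their group means correlated at 0.462 over 17476 genes. Within classes 2 calls were made (0.565%), against 26 by DESeq2 (1.39%), 289 without the filter (1.10%), 13 at an adjusted p of 0.05 with no minimum fold (1.56%), 66 with the replicate block (2.74%), 36 without libraries 3 and 4 (1.59%), 514 without libraries 1 and 2 (4.53%), 1 with summed libraries (0.380%) and 0 with at least 30 cells per sum (0.601%), and leaving out single libraries gave 0 to 3 (0.130% to 0.566%). In S-high cells there were 0 calls under all settings with the fold limit and 40 at an adjusted p of 0.05 without it (27.3%). In G2/M-high cells there was 1 call (0.728%), against 9 at an adjusted p of 0.05 with no minimum fold (18.2%), 0 with tertiles within classes (0.307%), 0 with no replicate block (0.193%), 0 without libraries 3 and 4 (0.385%), 0 without libraries 1 and 2 (0.524%), and 0 to 1 without single libraries (0.340% to 0.759%). For stage there were 0 calls (5.86%) and 2 at the wider threshold (18.9%). The log2 ratio of the summed level, 1.26, was 0.93 to 1.49 without single libraries and 0.25 without libraries 3 and 4. The summed level kept its sign. Of the log2 fold changes of single genes between genotypes, 16 of 63 changed sign without libraries 3 and 4, 16 with the replicate block and 0 to 4 under the other alternatives. In S-high cells 0 to 3 did, in G2/M-high cells 0 to 17, and between stages 0 to 12. Without erythroid-like and extraembryonic-like cells the genotype count stayed at 1, but the gene was *Hist3h2ba* and not *Hist1h3a*. The cause of these changes was not tested. With 2 WT host libraries and 1 library per genotype at E7.5, small differences could not be resolved.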

Other observations

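Replication-independent histone variants also differed between genotypes without Tet-TKO libraries 3 and 4 (edgeR adjusted p of 0.05, no minimum fold). Of 11 variants tested, 8 were higher and 2 lower in Tet-TKO cells, where 10.8% and 11.4% of all genes passed in these directions. *H2afx*, the H2A variant that is phosphorylated at DNA breaks, was higher (log2 fold change 0.67, SE 0.034), and the linker variant *H1f0*, known from slowly dividing cells, was lower (-0.66, SE 0.070). With all 6 libraries only *H1f0* passed at this threshold (log2 fold change -0.74, SE 0.102, adjusted p = 0.00805). Of 21 chaperones, 2 were higher and 2 lower without libraries 3 and 4, shares near those of all genes, with *Asf1b* lower in both fits (-0.53 and -0.65). The WT host libraries held 1411 and 2374 erythroid-like cells, against 62 and 202 in Tet-TKO libraries 1 and 2. Visceral endoderm-like cells numbered 547 and 226 against 7 and 2. The part of this composition in the differences of variants and chaperones was not tested.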
